A study of Mus musculus with 2 samples.

Results

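The miR-130/miR-301 family of the mouse comprises Mir130a, Mir130b, Mir301 (which makes miR-301a) and Mir301b, taken here by name. All 4 genes have a row among the 1973 microRNA gene rows of the embryonic kidney tables, and all 4 were detected, at 1 CPM (count per 1000000 reads in microRNA genes) or more in both libraries, as were 387 genes in all. The tissue was kidney of B6NCrl embryos aged 16.5 days, with males and females pooled and health state given as healthy. Biological replicates 1 and 2 form the only group, so nothing was treated or mutated and no condition was compared with another. The pool of replicate 2 came from 41 embryos, and the labels give both pools the same donor record. The spread between the libraries may therefore be partly technical.

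A microRNA is cut from a hairpin precursor, and either arm of the hairpin can yield a mature strand. The mature strand finds messenger RNAs mainly through its seed, bases 2 to 8 from the 5′ end, so microRNAs with the same seed are counted as a family. The miR-130/miR-301 family is defined by the seed of its 3p arms and is known for work on angiogenesis and on repression of the fat-cell regulator gene Pparg. Nephrons and vessels are still being laid down in the kidney at this age.

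The 3p arms are shown because their seed, in capitals, defines the family. The sequences are those of RefSeq on GRCm38.p6, and the table used here matched all 4 hairpins and 7 mature arms.
mmu-miR-130a-3p: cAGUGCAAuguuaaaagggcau
mmu-miR-130b-3p: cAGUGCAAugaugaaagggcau
mmu-miR-301a-3p: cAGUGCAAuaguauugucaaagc
For Mir301b the hairpin is given instead, with the same 7 letters in capitals.
Mir301b hairpin: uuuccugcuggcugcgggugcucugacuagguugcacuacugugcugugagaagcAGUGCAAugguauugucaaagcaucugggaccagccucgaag
Outside the seed the arms fell into a miR-130 type and a miR-301 type. Counted from the 5′ end, miR-130a-3p and miR-130b-3p were identical at 20 of 22 positions and differed by the substitutions U11A and A13G. By contrast, miR-130a-3p and miR-301a-3p were identical at 12 of 22 positions, and all 10 differences lay downstream of the seed.

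The 5p arms are shown because they do not share a single seed.
mmu-miR-130a-5p: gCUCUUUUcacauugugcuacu
mmu-miR-130b-5p: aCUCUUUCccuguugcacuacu
mmu-miR-301a-5p: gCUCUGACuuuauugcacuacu
mmu-miR-301b-5p: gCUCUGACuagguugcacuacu
Here miR-301a-5p and miR-301b-5p had the same seed and were identical at 19 of 22 positions, with U10A, U11G and A12G as the differences. The seeds of miR-130a-5p and miR-130b-5p differed from each other by U8C and from that of the miR-301 type. Over the whole arm, miR-130b-5p was identical to miR-130a-5p at 15 of 22 positions and to miR-301a-5p and miR-301b-5p at 16 of 22 each. The split into types thus does not hold for the whole 5p arms. The deposited counts are per gene and do not separate the arms, so a level below is the sum of reads from the whole hairpin.

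The members come from 3 loci, given on mm10. Mir130a lies on chromosome 2 from 84741115 to 84741178 on the minus strand, in no annotated same-strand host gene, with Gm19426 as the nearest other gene, 990 bases away. Mir130b (17124061 to 17124142) and Mir301b (17124400 to 17124496) lie on the minus strand of chromosome 16, with 257 bases between them. Both are in an intron of the protein-coding gene 2610318N02Rik, 1025 and 671 bases from its start, and Mir301b is the upstream gene. None of the 3 host transcripts that span them has an exon over either hairpin. Mir301 lies on the plus strand of chromosome 11 from 87113004 to 87113089. Its host is Ska2, which encodes a subunit of the spindle and kinetochore complex of dividing cells. The hairpin lies 3770 bases from the start of Ska2, in an intron of both transcripts that span it.

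Reads assigned to microRNA genes on their own strand numbered 7128703 in replicate 2 and 5317669 in replicate 1. A count of 0 allows up to 3 reads, which was 0.421 CPM at the depth of replicate 2 and 0.564 CPM at that of replicate 1. The kidney label was checked with marker microRNAs. Hox-locus and kidney genes were all detected (9 of 9) and held 24.7% of reads in replicate 2 and 27.1% in replicate 1. Most of this sum came from Mir10a, Mir10b, Mir196b and Mir30a, at mean levels of 154681, 61412, 24463 and 15587 CPM. Mir192, Mir194-2 and Mir204 of the same list were low, at means of 164, 95.2 and 227 CPM. The share thus speaks mainly for the Hox-locus genes. Epithelial genes (5 of 5 detected) held 2.68% in replicate 2 and 2.63% in replicate 1. Endothelial genes held 5.20% in replicate 2 and 5.30% in replicate 1, with 3 of 4 listed genes detected, since Mir126b matched no row by symbol. Nearly all of the endothelial sum came from Mir126a, at a mean of 52093 CPM, while Mir221 and Mir222 were low, at 267 and 147 CPM. Smooth muscle and stromal genes held 4.03% in replicate 2 and 2.91% in replicate 1, with 5 of 6 detected. Most of this sum came from Mir143, at a mean of 30355 CPM. The other detected genes of the list were Mir214, Mir145a, Mir199a-2 and Mir199a-1, at means of 3833, 456, 58.4 and 3.37 CPM. The summed counts for marker lists of other tissues were low. In replicate 2, blood cell genes summed to 0.110%, pancreas and endocrine genes to 0.0641%, neuronal genes to 0.0512%, striated muscle genes to 0.0325%, liver Mir122 to 0.0171% and pluripotent cell genes to 0.00310%. In replicate 1 the same lists, in that order, summed to 0.0878%, 0.0990%, 0.0506%, 0.0302%, 0.0210% and 0.00179%. The highest single genes of some of these lists, Mir375, Mir223, Mir132 and Mir206, had means of 702, 367, 364 and 277 CPM. They stood above Mir192, Mir194-2 and Mir204 of the kidney list, so the contrast between the sums rests on a few abundant genes. The blood cell sum covers 6 of 8 listed genes, since Mir142 and Mir486b matched no row by symbol, so it may be an undercount. At 0 reads stood Mir1a-1, Mir133a-1, Mir133a-2, Mir124a-2, Mir124a-3 and Mir145b. Of these 6 genes, all but Mir145b share an 18-nucleotide stretch with another microRNA precursor, as do 4 of 8 striated muscle and 5 of 8 neuronal genes with a row. Reads that map to several places are not in the gene rows, so the zeros and the muscle and neuronal sums may be undercounts and do not show that these microRNAs were absent. In bulk tissue, fewer cells that make a microRNA and less of it per cell cannot be told apart.

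The family held 33668.5 CPM in replicate 2 and 33335.3 CPM in replicate 1, which is 3.35% ± 0.0236 of the reads (SD, n = 2). Mir130a gave 79.4% ± 1.21 of the family reads and Mir130b 18.1% ± 1.40 (SD, n = 2), and the 4 members spanned levels from the 12th to the 200th rank.

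Mir130a, known from human endothelial cells as a microRNA that promotes vessel growth, had 192645 reads (27023.8 CPM) in replicate 2 and 139238 reads (26184.0 CPM) in replicate 1. Its mean of 26604 ± 594 CPM (SD, n = 2) ranked 12 of 1973 gene rows. The libraries lay close together, and 96.9% of the 387 detected genes stood lower.

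Mir130b, the downstream gene of the chromosome 16 locus, had 41010 reads (5752.8 CPM) in replicate 2 and 33797 reads (6355.6 CPM) in replicate 1. Its mean was 6054 ± 426 CPM, rank 26, above 93.3% of detected genes. Replicate 2 was the lower library for this gene.

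Mir301 had 5948 reads (834 CPM) in replicate 2 and 3918 reads (737 CPM) in replicate 1. Its mean was 786 ± 69.0 CPM, rank 88, above 77.3% of detected genes. Replicate 2 was the higher library here on the CPM scale.

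Mir301b had 410 reads in replicate 2, which is 57.5 CPM with an exact Poisson 95% interval of 52.1 to 63.4, and 313 reads in replicate 1, which is 58.9 CPM with an interval of 52.5 to 65.8. Its mean was 58.2 ± 0.952 CPM, rank 200, close to the middle of the detected genes, of which 48.3% stood lower. The intervals of the libraries overlap, and they cover counting error only.

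**Figure D1:**
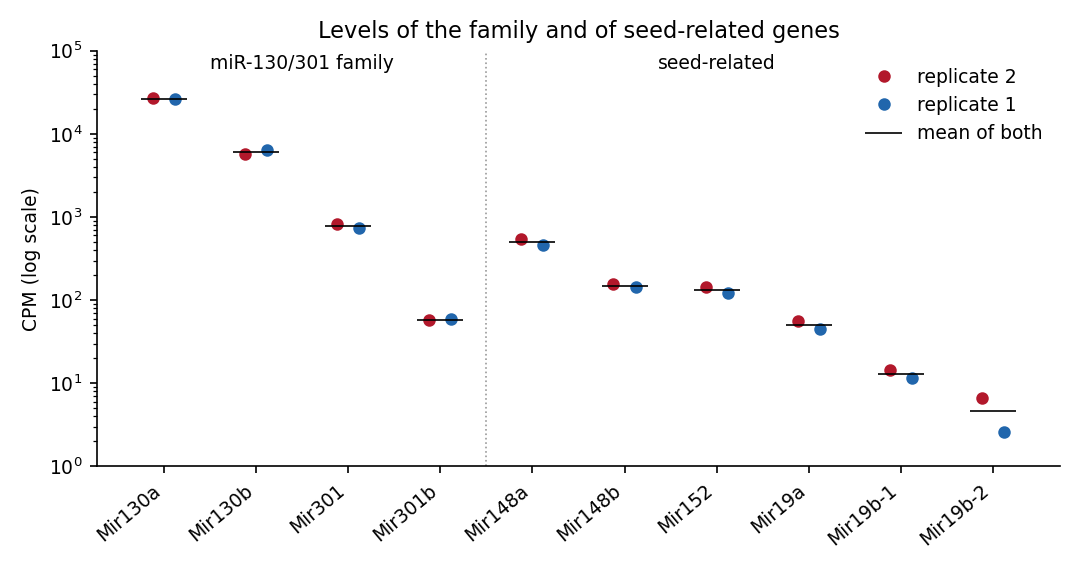
CPM on a log scale of the 4 family genes and of 6 genes with a related seed, with points for replicate 2 and replicate 1 and a line at their mean. The family runs from 26604 CPM for Mir130a to 58.2 CPM for Mir301b, and the replicates of each member lie much closer together than neighbouring members do.

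The members stood in the order Mir130a, Mir130b, Mir301 and Mir301b in both libraries, and no neighbours in this order overlapped. Folds between members were taken as ratios of reads within a library, where library size cancels. A pair was counted as apart past 1.34-fold, the 95% range around 0 of the pooled replicate SD of 0.22 log2 over 181 genes of 100 CPM or more. Of the 6 pairs, 6 passed this limit. The limit takes in the spread between replicates only. Any difference in how well the libraries capture each sequence is not in it and was not tested. The folds between genes are therefore folds of reads and may differ from those of molecules. An exact sign-flip test over 2 libraries cannot go below p = 0.5, so no p-value is given for them.

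Mir130a stood 4.70-fold above Mir130b in replicate 2 (exact binomial 95% interval 4.65 to 4.75) and 4.12-fold in replicate 1 (4.07 to 4.17). These intervals do not overlap, so the ratio differed between the libraries by more than counting error. It was the smallest of the 6 folds, at 4.40 from the mean log2 of 2.14 ± 0.13 (SD, n = 2). Mir130b stood 6.89-fold above Mir301 in replicate 2 (6.71 to 7.09) and 8.63-fold in replicate 1 (8.35 to 8.92), again without overlap. Mir301 stood 14.5-fold above Mir301b in replicate 2 (13.1 to 16.1) and 12.5-fold in replicate 1 (11.2 to 14.1). These last intervals overlap. Between the ends of the order, Mir130a stood 470-fold above Mir301b in replicate 2 and 445-fold in replicate 1.

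The genes with a 3p arm of the miR-130 type outweighed those with one of the miR-301 type. Mir130a and Mir130b together held 97.4% of the family reads in replicate 2 and 97.6% in replicate 1, while Mir301 and Mir301b held 2.65% in replicate 2 and 2.39% in replicate 1. The mean log2 ratio of these sums was 5.28 ± 0.11, a 38.8-fold difference.

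By locus, chromosome 2 led. Mir130a alone held 80.3% of the family reads in replicate 2 (exact Clopper-Pearson 95% interval 80.1 to 80.4) and 78.5% in replicate 1 (78.4 to 78.7). The chromosome 16 pair held 17.3% in replicate 2 and 19.2% in replicate 1, nearly all of it from Mir130b. The chromosome 11 gene Mir301 held 2.48% in replicate 2 (2.42 to 2.54) and 2.21% in replicate 1 (2.14 to 2.28). The chromosome 2 locus stood 4.36-fold above the chromosome 16 locus, which in turn stood 7.79-fold above Mir301, from mean log2 ratios of 2.12 ± 0.13 and 2.96 ± 0.23.

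Members with and without a host were set beside other genes of the same context. Among detected genes, the median was 58.2 CPM for the 170 in an intron of a same-strand gene and 106 CPM for the 125 with no same-strand host. The 3 intronic members differed in their place: Mir130b above 93.5% of those 170 genes, Mir301 above 74.1% and Mir301b above 50%. Mir130a lay above 96.8% of the 125 genes with no host. RNA of the host genes themselves was not measured, since the libraries hold fragments under 30 nucleotides.

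**Figure D2:**
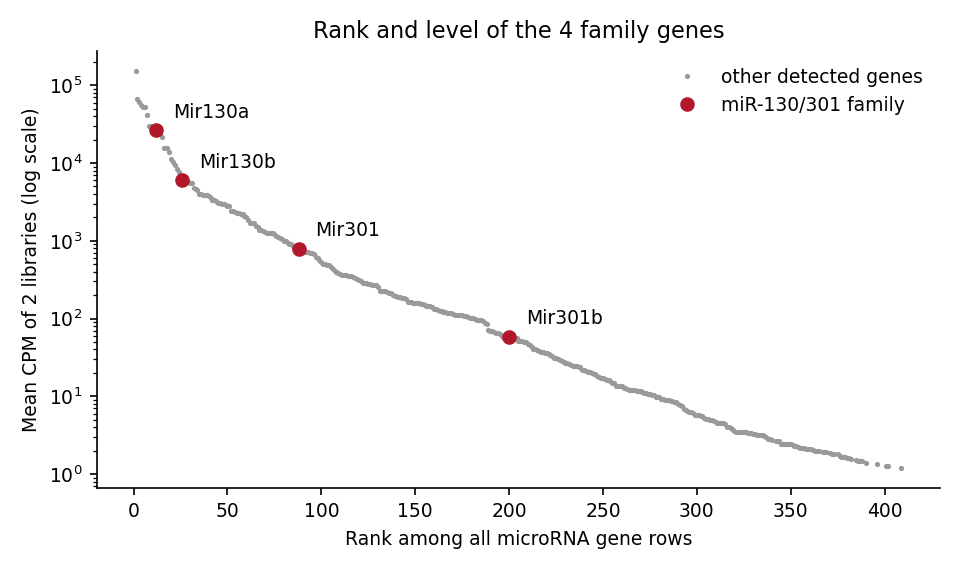
Mean CPM of both libraries on a log scale against rank for the 387 detected microRNA genes (grey), with the 4 family genes in red. Mir130a stands at rank 12, Mir130b at 26, Mir301 at 88 and Mir301b at 200.

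Within the chromosome 16 locus, the neighbours differed far more than most neighbouring microRNA genes do. Mir130b stood 100.02-fold above Mir301b in replicate 2 (90.7 to 111) and 108-fold in replicate 1 (96.6 to 121), a mean log2 of 6.70 ± 0.08. The data hold 95 pairs of consecutive genes on the same strand within 10 kb, counting genes with a mean of 10 CPM or more. Over these pairs the median fold between the higher and the lower gene was 8.0, with quartiles at 2.31 and 26.9. The chromosome 16 pair was the 6th largest, and 94.7% of the other pairs had a smaller fold. Next above it came Mir20a over Mir19a at 204-fold, and next below it Mir181a-1 over Mir181b-1 at 92.1-fold. The larger 5 pairs reached up to 797-fold, and 4 of them include a precursor that shares an 18-nucleotide stretch with another microRNA gene, so that reads mapping to several places may be missing from those counts. Among the 60 pairs in which neither precursor shares such a stretch, only Mir20a over Mir19a had a larger fold, a selection of pairs made after the data were seen.

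**Figure D3:**
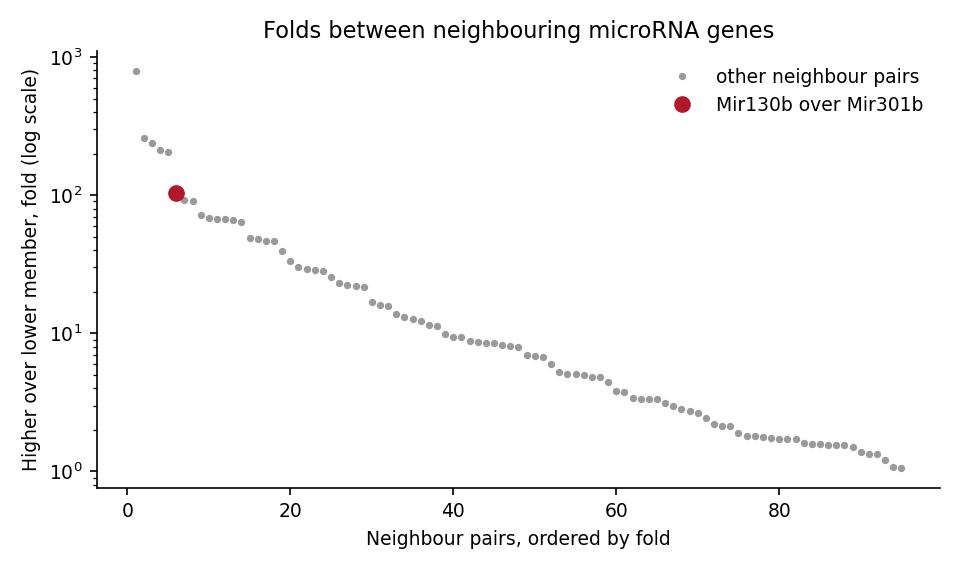
Fold of the higher over the lower gene on a log scale for 95 pairs of neighbouring microRNA genes on the same strand, ordered by fold. The pair Mir130b over Mir301b (red, 104-fold) stands 6th, above the median of 8.0.

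The ratio within the locus was close in both libraries. The SD of the log2 ratio between replicates was 0.08 for Mir130b over Mir301b, against a median of 0.12 over the 95 pairs, and 27 pairs had a smaller SD. The downstream gene was the higher in 45 of the 95 pairs, as it was in this one.

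Sharing of reads between members was checked through their sequences. None of the 4 precursors shares an 18-nucleotide stretch with any of the 2201 microRNA precursors of the annotation, of which 1127 share one with another. The longest stretch in common with another RefSeq hairpin was 17 nucleotides for Mir130a (with Mir6389) and 16 for the others. Mir301 and Mir301b had 16 in common. These checks take exact stretches only. Over the length of miR-301a-3p, the matching part of the Mir301b hairpin printed above differs from it in 1 base. The aligner and the mismatches it allowed are not given, so sharing of near-identical reads between Mir301 and Mir301b was not tested. Each of the 7 mature arms occurs in full in exactly 1 annotated transcript, its own precursor. The genome outside transcripts was not searched.

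Other genes with the family seed and a gene row were at or near 0. RefSeq gives the same bases 2 to 8 to the mature strands of Mir130c, Mir721, Mir6341 and Mir6389. Of these, Mir130c had 1 read in replicate 2 and 0 in replicate 1, and Mir6341 and Mir6389 had 0 in both, so each lay under the limit that a count of 0 allows. Mir721 matched no gene row by symbol, so its level is not known here.

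Genes that share 6 consecutive letters with bases 1 to 8 of the family 3p arms are shown with those letters in capitals, as 1 example of each kind. The letters CAGUGC are shared with the miR-148/miR-152 family and GUGCAA with miR-19. CAGUGC starts at base 1 of the miR-130/miR-301 arms, outside their seed, and 1 base later in the miR-148/miR-152 family. GUGCAA starts 1 base earlier in miR-19 than in the miR-130/miR-301 arms, so neither group has the family seed.
mmu-miR-148a-3p: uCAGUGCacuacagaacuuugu
mmu-miR-19a-3p: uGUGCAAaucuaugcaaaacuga
Mir148a had 542 CPM in replicate 2 and 464 CPM in replicate 1, and its relatives were lower. Mir148b had 155 CPM in replicate 2 and 145 CPM in replicate 1, and Mir152 had 142 CPM in replicate 2 and 121 CPM in replicate 1. Of the miR-19 genes, part of the growth-promoting miR-17 clusters, Mir19a had 56.4 CPM in replicate 2 and 44.9 CPM in replicate 1. Mir19b-1 had 14.4 CPM in replicate 2 and 11.5 CPM in replicate 1, and Mir19b-2 had 6.73 CPM in replicate 2 and 2.63 CPM in replicate 1. Their sums lay below the miR-130/miR-301 family, which stood 40.1-fold above the miR-148/miR-152 genes in replicate 2 and 45.7-fold in replicate 1. Against the 3 miR-19 genes the fold was 434 in replicate 2 and 565 in replicate 1. Mir19b-1 and Mir19b-2 have the same 3p arm, so reads of theirs that map to both places are not in the counts and these last folds are upper values. A search of bases 1 to 8 of all RefSeq mature strands found 2 more genes with such letters, Mir1960 and Mir6347, both at 2.26 CPM or less.

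Levels like those of the members were held by other genes, and the nearest in mean CPM differed from each member by less than the 1.34-fold limit. Around Mir130a these were Mir26b, Mir17, Mir196b and Mir23b, and around Mir130b they were Mir21a, Mir106b, Mir151 and Mir652. Mir503, Mir483, Mir181b-2 and Mir381 flanked Mir301, while Mir199a-2, Mir7-1, Mir1981 and Mir331 flanked Mir301b. In all, 7 other genes lay within the limit of Mir130a, 10 of Mir130b, 19 of Mir301 and 22 of Mir301b. With 2 libraries of the same tissue, this is a likeness of level only.

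The libraries were also set against each other to see how far each member differed between the pools. After TMM scaling, the log2 ratio of replicate 2 over replicate 1 was -0.10 for Mir130a, -0.29 for Mir130b, 0.04 for Mir301 and -0.18 for Mir301b. With 1 library a side this difference has no replicate check. No member passed 1.5-fold (0 of 4), while 22.4% of the 455 genes with at least 10 reads did. Most of the genes that passed have fewer reads than any member, so the 22.4% is not a share at the depth of the members. On this count, 0 of 4 does not set the members apart. The median absolute log2 ratio was 0.14 for the members and 0.20 over all 455 genes, of which many have far fewer reads. Over the 79 genes of 1000 CPM or more it was also 0.14, the same as for the members.

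**Figure D4:**
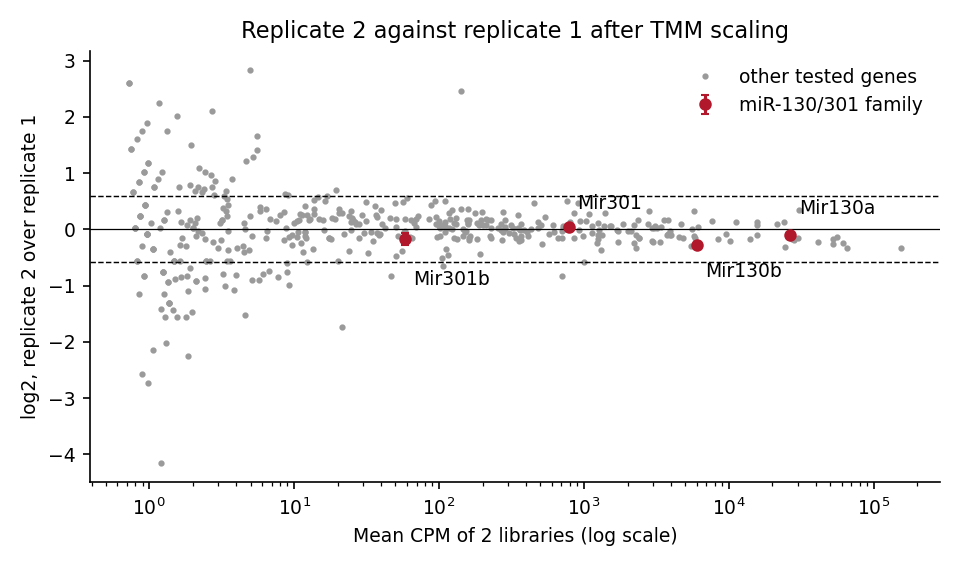
Log2 ratio of replicate 2 over replicate 1 after TMM scaling against mean CPM on a log scale, for the 454 of 455 tested genes with reads in both libraries. Dashed lines mark 1.5-fold, bars on the red family points are counting standard errors, and all 4 members lie between the lines.

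In an exact binomial test on reads, which compares these libraries and takes in counting error only, 2 of 4 members passed an adjusted p of 0.05, both lower in replicate 2, against 33.6% of all tested genes. Mir130b had an adjusted p of 1.35e-158 and Mir130a one of 8.19e-81 (exact binomial, Benjamini-Hochberg over 455 genes). Mir301 (adjusted p = 0.390) and Mir301b (adjusted p = 0.213) did not pass this exact binomial test, with counting errors of 0.03 and 0.11 log2. Among the 79 genes of 1000 CPM or more, 84.8% passed, so that passing was common at the depth of Mir130a and Mir130b. In the edgeR exact test with the biological coefficient of variation (BCV) set at 0.2, 0 of 4 members passed, adjusted or at an unadjusted p under 0.05, and 3 of 455 genes passed after adjustment (18 at an unadjusted p under 0.05). Scaling by library totals moved all log2 ratios up by 0.14 and turned that of Mir130a to 0.05, while Mir130b stayed lower in replicate 2 at -0.14. Of the 6 genes with a related seed, 1 passed both 1.5-fold and the binomial test, Mir19b-2, which was higher in replicate 2 (log2 1.21, adjusted p = 0.0147, exact binomial), and the other 5 passed neither. Of the 2 genes added by the search, Mir1960 also passed both and was lower in replicate 2, with 1 read against 12 in replicate 1 (log2 -4.15, adjusted p = 0.000658, exact binomial), and Mir6347 had no reads to test. With totals, 78.8% of the genes that passed the binomial test were higher in replicate 2, against 47.1% with TMM.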

How the data were processed

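The authors deposited raw read counts per microRNA gene for each library, on mm10 with annotation M4 per the text files deposited with them. For the aligner, counter and trimming, nothing is given in the sources used here. In all 1973 gene rows the either-strand count equals the sum of the other strand columns. Reads on the gene's strand were used, as CPM of their total. Rows that name no gene held 51.5% of reads in replicate 2 and 55.2% in replicate 1 and were left out. Multimapping reads, 25.3% in replicate 2 and 28.0% in replicate 1, are among them.

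Symbols and positions came from GENCODE M21 on GRCm38, the mm10 assembly, which matched 1894 of 1973 rows. TMM scaling (edgeR 4.0.16, factors 1.05 for replicate 2 and 0.952 for replicate 1) and the exact binomial test used the 455 genes with 10 or more reads summed. The test was also tested on simulated Poisson counts. These hold counting error only, so they say nothing of the test where pools differ by more than that. edgeR's quasi-likelihood test has no residual degrees of freedom here. DESeq2 1.42.0 size factors, library totals, both-strand reads, other denominators, filters, distances and single libraries were tried as alternatives. Sets of related genes and rank neighbours were named by rule. Members and lists were chosen with earlier results of these data known. Intervals and floors cover counting error only.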

Additional observations from a re-analysis of the deposited data

Results flagged for a closer look

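Mir130a had 7 reads on the opposite strand in replicate 1, more than the 3 reads that a count of 0 allows, and 2 such reads in replicate 2. They made up 0.00503% of the reads at this gene in replicate 1 and 0.00104% in replicate 2, whereas 2.14% of all reads in gene rows of replicate 1 and 2.24% of those of replicate 2 lay on the opposite strand. The other 3 members had 0 opposite-strand reads in both libraries.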

How the results depend on the processing

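No paired analysis was possible because the series holds 1 group. With all reads of the tables as the denominator, the members fell to 12411 (Mir130a), 2817 (Mir130b), 367 (Mir301) and 27.1 CPM (Mir301b) and the family to 15622 CPM. Leaving the most abundant gene, Mir10a, out of the denominator gave 31470 (Mir130a), 7167 (Mir130b), 929 (Mir301) and 68.9 CPM (Mir301b), and 39635 CPM for the family. Both-strand reads gave 56.9 CPM for Mir301b and 32769 CPM for the family. All 6 pairwise calls held under each of the 5 alternatives tried for them. Scaling by library totals turned the log2 ratio of Mir130a to 0.0455 and brought Mir301, at 0.18, past the binomial threshold. Without a filter on low counts 300 genes passed 1.5-fold, against 102, and with a 2-fold rule 49 did. The edgeR exact test with a BCV of 0.2 called 0 members, against 2 in the binomial test, and 3 genes, against 153. Among pairs sharing no 18-nucleotide stretch, 98.3% had a smaller fold than Mir130b over Mir301b, against 94.7% of all. With genes of 1 CPM or more the share was 90% (111 pairs, 11 with a larger fold). It was 92.6% for neighbours within 1 kb and 94.1% for those within 50 kb. Single libraries gave a family sum of 33335 to 33668 CPM and a Mir130b over Mir301b fold of 100.02 to 108. They could not be used for the ratio between libraries, which needs both. Depth limits Mir301b most, with 410 reads in replicate 2 and 313 in replicate 1.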
